A study of Rattus norvegicus with 17 samples.

Results

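The MAPK feedback genes described here are 10 genes whose transcription is driven by the RAS-RAF-MEK-ERK cascade and most of whose products act back on it: the phosphatases Dusp4, Dusp5 and Dusp6, the Sprouty genes Spry1, Spry2 and Spry4, the Sprouty-related genes Spred1 and Spred2, and the ETS transcription factors Etv4 and Etv5. They were taken by symbol from the probe annotation of an Affymetrix rat array, and all 10 had a probe set that named that gene alone, out of 14506 genes with a named probe set. Each had 1 such probe set. Tumours were sampled from rats of 8 months of age on a mixed Sprague-Dawley white eye and Wistar-Kyoto background. All groups, controls included, carried a mutation of p27Kip1, written Cdknb1 in the labels (the cell cycle inhibitor gene Cdkn1b), given as homozygous for each sample but as heterozygous in the series design. Control rats received PEG (polyethylene glycol) at 20 mg/kg (7 samples, 5 female and 2 male), and treated rats received NVP-BEZ235, an inhibitor of PI3K and mTOR, at 20 mg/kg (6 samples, 4 female and 2 male) or at 30 mg/kg (4 samples, 3 female and 1 male). The length of treatment was not given in the sources used here. Whether every sample is from a different animal is not stated, and the p-values cover only the variation among the samples at hand, which may be technical.

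In ERK signalling, an activated receptor loads RAS with GTP, RAF then phosphorylates MEK, and MEK phosphorylates ERK. Active ERK switches on its own inhibitors. Sprouty proteins act near the receptor, SPRED proteins bring neurofibromin to RAS and hold back RAF, and DUSP phosphatases remove the phosphates from ERK, so the mRNA of these genes is widely used as a readout of ERK output. mTOR complex 1 and S6 kinase normally restrain signalling from growth factor receptors, and inhibitors of PI3K and mTOR are known to raise ERK activity in some tumours. In the adrenal medulla and in pheochromocytoma the pathway carries nerve growth factor signals, and mutations of RET, NF1 and HRAS that raise it are found in this tumour. Protein and phosphorylation were not measured here.

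The promoters of Dusp5, Etv5 and Spred1 are shown as examples from the genes called in a comparison with control. They were chosen partly because the first and the second hold matches to motifs of factors downstream of ERK or of PI3K. Their matches are thus no result about the called genes. Spry4 and Dusp6 were also called in such a comparison but are not printed. Each window is the 250 bases before the RefSeq start of the gene in the rat build GRCr8, printed 5′ to 3′ on the strand of the gene, and capitals mark a match.
Dusp5 (chr1:262543524-262543773, plus strand): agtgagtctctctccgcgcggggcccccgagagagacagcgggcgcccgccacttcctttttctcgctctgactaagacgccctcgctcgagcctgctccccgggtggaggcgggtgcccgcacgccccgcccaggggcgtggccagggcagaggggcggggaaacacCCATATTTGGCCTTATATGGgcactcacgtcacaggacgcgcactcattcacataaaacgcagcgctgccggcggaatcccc
Etv5 (chr11:92113013-92113262, plus strand): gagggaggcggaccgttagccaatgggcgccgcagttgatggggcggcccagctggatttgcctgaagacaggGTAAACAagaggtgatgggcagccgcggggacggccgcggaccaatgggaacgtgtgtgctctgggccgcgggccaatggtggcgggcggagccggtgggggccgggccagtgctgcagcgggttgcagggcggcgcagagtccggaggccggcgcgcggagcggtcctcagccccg
Spred1 (chr3:124436980-124437229, plus strand): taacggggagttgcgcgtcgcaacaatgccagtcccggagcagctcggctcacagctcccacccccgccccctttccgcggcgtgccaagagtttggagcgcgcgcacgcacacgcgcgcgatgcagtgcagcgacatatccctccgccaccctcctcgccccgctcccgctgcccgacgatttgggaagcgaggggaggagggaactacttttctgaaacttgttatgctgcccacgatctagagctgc
The Dusp5 window holds 2 adjoining matches to the CArG box, the motif of serum response factor, CCATATTTGG starting 82 bases and CCTTATATGG starting 72 bases before the start site. A CArG match was present in 1.5% of 33469 windows of this length. The Etv5 window holds GTAAACA, the core bound by FOXO factors, which AKT inactivates, 177 bases before the start, a match found in 3.21% of windows. Spred1 had no match to any motif searched. RefSeq windows were found for 8 of the 10 genes, all but Dusp4 and Etv4, with 2 starts for Spry2. On both strands the search also covered the ETS motif CCGGAAG (7.27% of windows), the cAMP response element TGACGTCA (1.59%), the AP-1 motif TGANTCA (6.34%) and the Capicua octamers TGAATGAA (1.18%) and TGAATGGA (1.11%). The only other match was in Spry4, which holds TCCATTCA, the reverse complement of the second Capicua octamer, 198 bases before its start. Capicua is a repressor that ERK removes from its targets, among them the ETV genes. A match describes these letters only.

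The labels call the tissue pituitary adenoma, while the series title names pheochromocytoma, the tumour of adrenal chromaffin cells. The chromaffin genes Th and Dbh, which make catecholamines, averaged 12.29 and 12.32 on the log2 scale, and Star and Cyp11a1, genes of steroid synthesis in the adrenal cortex, averaged 12.11 and 12.02, at percentiles of 99.8 to 99.9 among gene means. The 7 pituitary hormone genes measured averaged between 3.86 and 5.61, and single samples reached 9.16 for Prl and 7.86 for Pomc. Not every gene on the adrenal lists was high, as Slc18a2 of the chromaffin list averaged 6.15 and Nr0b1 of the cortex list 4.97. The tissue is therefore called tumour below. All values are RMA log2 values as deposited, and array medians over genes lay between 5.67 and 5.87. Titles number the controls 1 to 7 and the treated samples 1 to 10, and all samples at 30 mg/kg carry numbers 1 to 4, those at 20 mg/kg numbers 5 to 10. Controls 5 to 7 correlated with the 20 mg/kg samples at a median r of 0.983 over genes and with the 30 mg/kg samples at 0.947, and controls 1 to 4 correlated with them at 0.966 and 0.955. Dose and number set coincide in the treated samples and cannot be told apart there, so the changes of the feedback genes are also given against the controls of the same numbers. These comparisons, 30 mg/kg against controls 1 to 4 and 20 mg/kg against controls 5 to 7, share no sample.

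The feedback genes were on balance higher in treated tumours, and Spred1 and Etv5 passed the test in the comparison of both doses with control. Spred1 was 1.54-fold and Etv5 1.86-fold higher (log2 changes 0.62 ± 0.12 and 0.90 ± 0.20, SE, 10 treated against 7 control samples; limma with Benjamini-Hochberg adjustment over all genes, adjusted p = 0.020 and 0.034). These 2 of 10 compare with 1.48% of all genes called in either direction and 0.517% called higher. Of the 10 estimates, 9 were above 0, against 49.6% of all genes, and their median was 0.58 against -0.0016 over all genes. At 30 mg/kg against all controls, 4 of 10 were called, all higher, namely Dusp5, Spry4, Spred1 and Etv5, where 8.55% of genes were called in either direction and 3.66% higher (after median centring the split of calls was 756 higher and 639 lower in place of 531 and 709). All 10 estimates were above 0 there, with a median of 0.90 against 0.012 for all genes. At 20 mg/kg, 1 of 10, Spred1, was called, against 1.18% of genes in either direction and 0.655% higher (95 higher and 76 lower, or 43 and 70 after quantile normalization). The median of the 10 was 0.32 at this dose, against -0.014 for all genes.

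**Figure D1:**
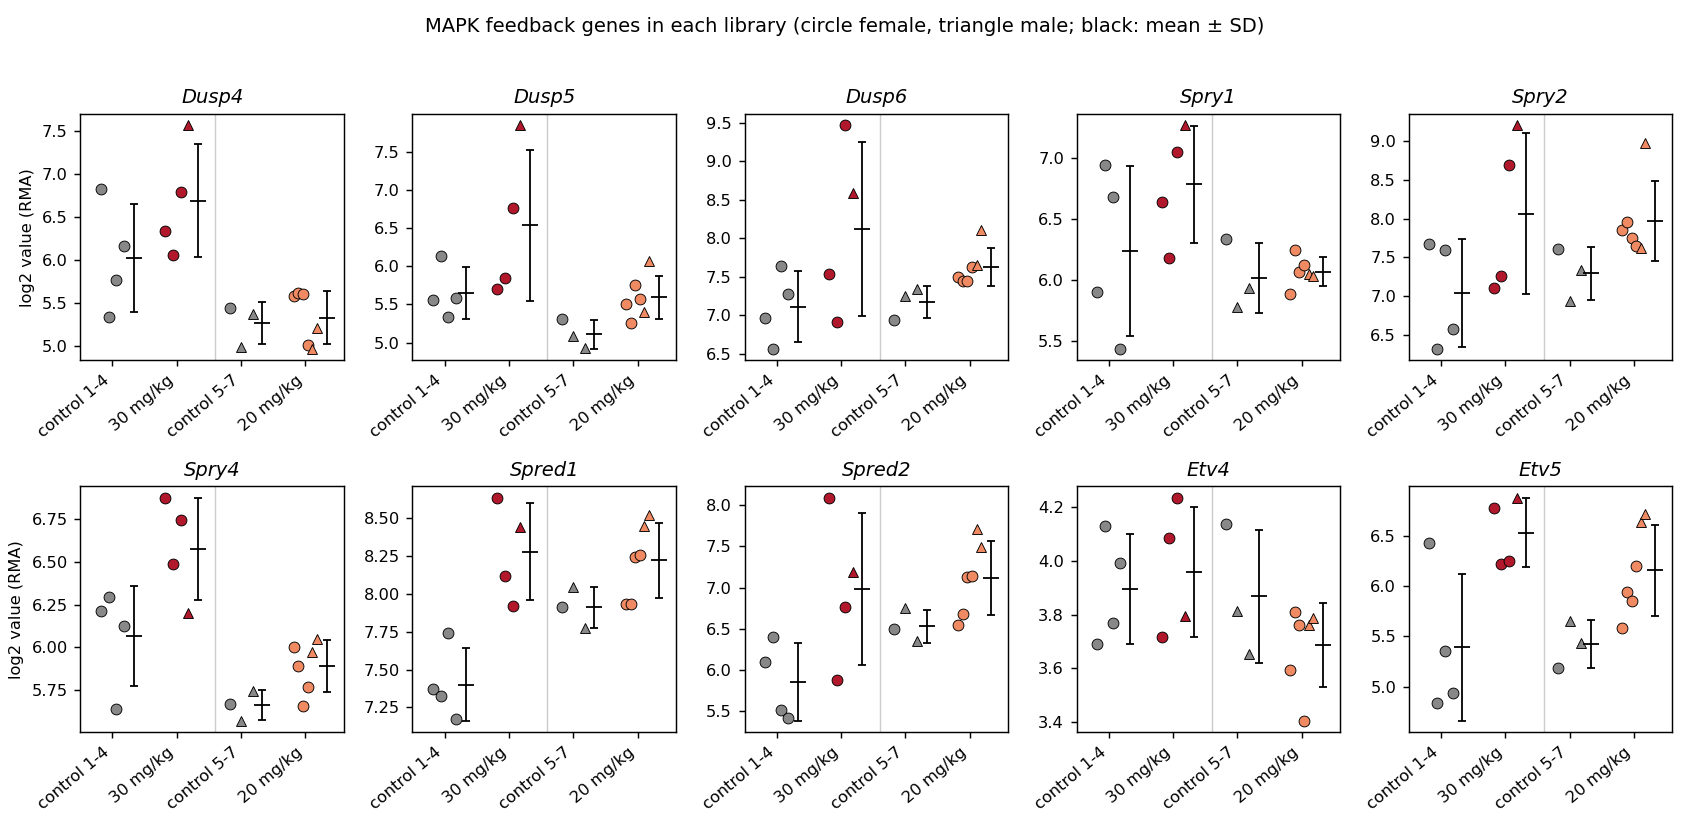
Log2 value (RMA) of each feedback gene in every sample on the y axis, with controls 1 to 4, 30 mg/kg, controls 5 to 7 and 20 mg/kg on the x axis; circles are female and triangles male rats, and black bars give mean ± SD. The 30 mg/kg samples spread widely for Dusp5, Dusp6 and Spry2, while Spred1 and Etv5 lie above the control mean in all 10 treated samples.

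Spred1, which brings neurofibromin to the membrane to switch RAS off, rose over both doses and at each dose against all controls. Its controls 1 to 7 read 7.37, 7.32, 7.74, 7.17, 7.92, 8.04 and 7.77, the 30 mg/kg samples 1 to 4 read 8.63, 8.12, 7.92 and 8.44, and the 20 mg/kg samples 5 to 10 read 7.93, 7.93, 8.24, 8.26, 8.44 and 8.52. All 10 treated samples lay above the control mean of 7.62 ± 0.33 (SD, n = 7) and 7 lay above the highest control. The change was 0.67 ± 0.15 at 30 mg/kg (adjusted p = 0.013) and 0.58 ± 0.14 at 20 mg/kg (adjusted p = 0.047) in limma's fit of the 3 groups. Controls 1 to 4 averaged 7.40 ± 0.24 and controls 5 to 7 averaged 7.91 ± 0.13, and these controls did not overlap, as was so for 10.9% of genes in this direction. Against controls 1 to 4 the change at 30 mg/kg was 0.88 ± 0.19 with no overlap between the groups (3.46% of genes lay entirely higher in this way), but it did not pass (adjusted p = 0.10). Against controls 5 to 7 the change at 20 mg/kg was 0.40 ± 0.14 (adjusted p = 0.18). With the number set as a term, the change over both doses was 0.61 ± 0.12 (adjusted p = 0.0097). That term ended the call at 20 mg/kg (0.39 ± 0.17, adjusted p = 0.47). The call was also lost without a sex term (0.60 ± 0.16, adjusted p = 0.091) and after quantile normalization (0.48 ± 0.13, adjusted p = 0.079). The call over both doses was lost without control 7 (0.60, adjusted p = 0.059). The call at 20 mg/kg was lost on leaving out any of controls 1, 2, 4, 6 and 7, sample 4 at 30 mg/kg or any of samples 5 to 10 at 20 mg/kg, with changes between 0.53 and 0.62 and adjusted p between 0.053 and 0.13.

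Spred2, the paralogue of Spred1 with the same action on RAS and RAF, had larger estimated changes than Spred1 in each comparison with control, with larger errors. Its controls 1 to 7 read 6.10, 6.41, 5.51, 5.42, 6.49, 6.75 and 6.35. The 30 mg/kg samples read 8.09, 5.88, 6.76 and 7.19, and the 20 mg/kg samples 6.55, 6.68, 7.12, 7.14, 7.71 and 7.49. Sample 2 at 30 mg/kg lay within the controls, and the other 9 treated samples lay above the control mean of 6.15 ± 0.51. The change over both doses was 0.91 ± 0.24 and narrowly missed the threshold (adjusted p = 0.067). It passed with the number set as a term (0.88 ± 0.24, adjusted p = 0.047) and without sample 2 at 30 mg/kg (1.03, adjusted p = 0.027). Within the sets it was 1.12 ± 0.42 at 30 mg/kg (adjusted p = 0.29) and 0.75 ± 0.19 at 20 mg/kg (adjusted p = 0.093).

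Among the Sprouty genes, which restrain signalling between receptor and RAF, Spry4 was called at 30 mg/kg. Spry4 read 6.21, 6.29, 5.64, 6.12, 5.67, 5.57 and 5.75 in controls 1 to 7, 6.87, 6.49, 6.74 and 6.20 at 30 mg/kg, and 6.001, 5.89, 5.66, 5.77, 5.98 and 6.05 at 20 mg/kg. The change at 30 mg/kg was 0.68 ± 0.16 against all controls (adjusted p = 0.013), and 3 of 4 samples lay above the highest control. With the set as a term it was 0.52 ± 0.17 (adjusted p = 0.099). At 20 mg/kg it was 0.0046 ± 0.14 (95% interval -0.29 to 0.29). The controls themselves differed by set, 6.07 ± 0.29 for numbers 1 to 4 and 5.66 ± 0.09 for numbers 5 to 7, with overlap. Against the controls of the same numbers the changes were 0.51 ± 0.20 at 30 mg/kg (adjusted p = 0.30) and 0.27 ± 0.11 at 20 mg/kg (adjusted p = 0.28).

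Spry2 was 1.81-fold higher over both doses without passing the test. Its controls read 7.67, 6.32, 7.60, 6.57, 7.61, 6.93 and 7.34. The 30 mg/kg samples read 7.11, 7.26, 8.69 and 9.20, so that samples 1 and 2 lay within the controls and samples 3 and 4 above them. The 20 mg/kg samples read 7.86, 7.96, 7.75, 7.64, 7.63 and 8.98, and all 6 lay above controls 5 to 7, as 3.22% of genes did in that comparison. The changes were 0.85 ± 0.28 over both doses (adjusted p = 0.15), 1.03 ± 0.51 within numbers 1 to 4 (adjusted p = 0.43) and 0.73 ± 0.29 within numbers 5 to 10 (adjusted p = 0.24). Spry1 passed in none of these comparisons. It ranged from 5.43 to 6.94 in controls, from 6.18 to 7.27 at 30 mg/kg and from 5.88 to 6.24 at 20 mg/kg, with changes of 0.64 ± 0.25 at 30 mg/kg (adjusted p = 0.12) and -0.08 ± 0.22 at 20 mg/kg (adjusted p = 0.89), and of 0.54 ± 0.35 and -0.01 ± 0.13 within the sets (adjusted p = 0.57 and 0.98).

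Dusp6, the cytoplasmic phosphatase specific for ERK, was called within numbers 5 to 10. Its controls 1 to 7 read 6.97, 6.56, 7.64, 7.27, 6.94, 7.25 and 7.34, the 30 mg/kg samples 7.54, 6.91, 9.47 and 8.59, and the 20 mg/kg samples 7.49, 7.44, 7.45, 7.63, 7.65 and 8.10. All 20 mg/kg samples lay above controls 5 to 7, as 3.22% of genes did in that comparison. Samples 5 to 9 lay between 7.44 and 7.65 and sample 10 apart from them at 8.10. Against controls 5 to 7 the change was 0.57 ± 0.12 (limma, adjusted p = 0.048). In that comparison 2 of 10 feedback genes, Dusp6 and Etv5, were called, against 1.19% of genes in either direction and 0.214% higher. The call of Dusp6 was lost on leaving out any of the 9 samples but sample 9 at 20 mg/kg (change between 0.47 and 0.59, adjusted p between 0.057 and 0.13) and without a sex term (0.45 ± 0.16, adjusted p = 0.30). Against all controls the change at 20 mg/kg was 0.47 ± 0.29 (adjusted p = 0.43). At 30 mg/kg it was 0.998 ± 0.33 against all controls (adjusted p = 0.067) and 1.01 ± 0.50 against controls 1 to 4 (adjusted p = 0.42), with samples 3 and 4 above all controls and samples 1 and 2 among them.

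Dusp5, the nuclear ERK phosphatase whose promoter carries the CArG pair printed above, was called at 30 mg/kg. Its controls read 5.56, 6.13, 5.34, 5.58, 5.31, 5.09 and 4.93, the 30 mg/kg samples 5.71, 5.84, 6.76 and 7.84, and the 20 mg/kg samples 5.50, 5.26, 5.75, 5.57, 5.40 and 6.07. Only samples 3 and 4 at 30 mg/kg lay above every control. The change was 1.13 ± 0.31 (adjusted p = 0.033), and it lost its call without sample 4 (0.63, adjusted p = 0.21), sample 3 (1.03, adjusted p = 0.097), or control 5, 6 or 7 (1.12, 1.04 and 1.01, adjusted p between 0.053 and 0.070). Without both samples 3 and 4 it was 0.30 ± 0.25 (adjusted p = 0.66), and with the set as a term 0.76 ± 0.32 (adjusted p = 0.22). Controls 1 to 4 averaged 5.65 and lay entirely above controls 5 to 7, which averaged 5.11, as did 10.5% of genes. Within the sets the changes were 0.89 ± 0.43 at 30 mg/kg (adjusted p = 0.42) and 0.50 ± 0.18 at 20 mg/kg (adjusted p = 0.20).

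Dusp4, a nuclear phosphatase of ERK and other MAP kinases, had no consistent sign between the doses. It read 6.82, 5.34, 5.77, 6.16, 5.44, 4.99 and 5.37 in controls 1 to 7, 6.33, 6.06, 6.79 and 7.56 at 30 mg/kg and 5.58, 5.61, 5.61, 5.01, 4.97 and 5.21 at 20 mg/kg. The samples at 30 mg/kg lay above all those at 20 mg/kg, as 5.16% of genes did, but control 1 was higher than 3 of the 4 samples at 30 mg/kg. The change was 0.98 ± 0.31 at 30 mg/kg (adjusted p = 0.058) and -0.36 ± 0.27 at 20 mg/kg (adjusted p = 0.54). Against the controls of the same numbers it was 0.66 ± 0.38 (adjusted p = 0.51) and -0.05 ± 0.16 (adjusted p = 0.93).

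Etv5, an ETS factor of the PEA3 family and a transcriptional target of ERK signalling, was called over both doses, at 30 mg/kg and within numbers 5 to 10. Its controls 1 to 7 read 6.43, 4.83, 5.36, 4.94, 5.18, 5.65 and 5.43, the 30 mg/kg samples 6.77, 6.22, 6.25 and 6.88, and the 20 mg/kg samples 5.59, 5.94, 5.86, 6.19, 6.64 and 6.71. All 10 treated samples lay above the control mean of 5.40 ± 0.54, and apart from control 1 the controls reached at most 5.65. The change was 1.14 ± 0.24 at 30 mg/kg (adjusted p = 0.0080) and 0.73 ± 0.21 at 20 mg/kg (adjusted p = 0.092). Controls 1 to 4 and 5 to 7 had close means, 5.39 and 5.42. Against them the changes were 1.14 ± 0.34 at 30 mg/kg (adjusted p = 0.19) and 0.95 ± 0.15 at 20 mg/kg (adjusted p = 0.016), and with the set as a term the change over both doses was 0.96 ± 0.18 (adjusted p = 0.0071). That term ended the call at 30 mg/kg (0.99 ± 0.27, adjusted p = 0.061), and without a sex term the calls over both doses (0.90 ± 0.22, adjusted p = 0.057) and within numbers 5 to 10 (0.73 ± 0.24, adjusted p = 0.28) were lost. The call over both doses was lost without any of controls 2 to 7, samples 1, 3 or 4 at 30 mg/kg or samples 8 or 10 at 20 mg/kg (changes between 0.82 and 0.91, adjusted p between 0.051 and 0.10). The call within numbers 5 to 10 was lost without control 6 or 7 (0.96 and 0.85, adjusted p = 0.058 and 0.071).

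Etv4, the other PEA3 factor on the list, was at the level of the dimmest probe sets. It ranged from 3.65 to 4.14 in controls, from 3.72 to 4.24 at 30 mg/kg and from 3.40 to 3.81 at 20 mg/kg, where the lower quartile of the arrays lay between 3.65 and 3.91. Its change over both doses was -0.09 ± 0.11 (adjusted p = 0.81). Within the sets it was 0.06 ± 0.17 at 30 mg/kg and -0.20 ± 0.14 at 20 mg/kg (adjusted p = 0.92 and 0.54). A change at such a level would be compressed.

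**Figure D2:**
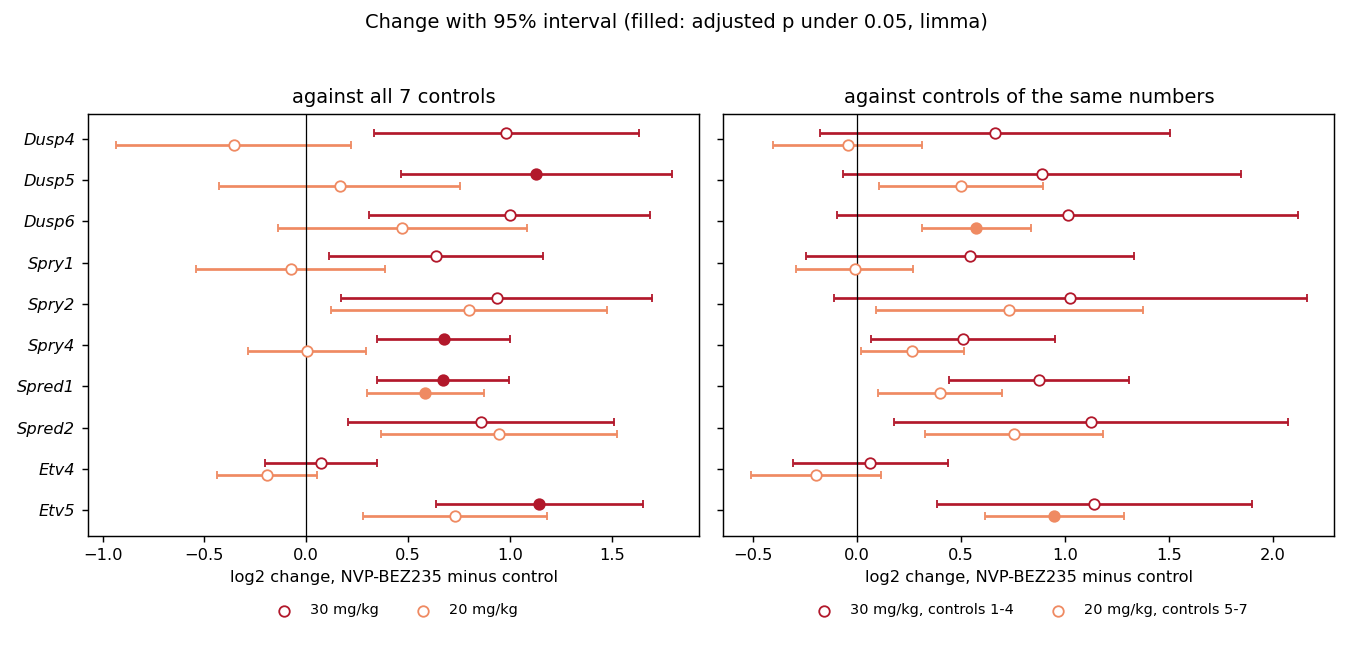
Log2 change of each feedback gene (x axis) with its 95% interval, at 30 mg/kg (dark) and 20 mg/kg (light), against all 7 controls on the left and against the controls of the same title numbers on the right; filled points had an adjusted p under 0.05. Spred1, Spred2 and Etv5 lie above 0 with intervals clear of 0 in all 4 comparisons, and Dusp4 and Spry4 differ less between doses on the right than on the left.

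Between the doses, 2 of 10 genes were called, Dusp4 (1.34 ± 0.32) and Spry4 (0.67 ± 0.16), both higher at 30 mg/kg (limma, adjusted p = 0.015 for each). Of all genes 12.1% were called between the doses and 3.92% were higher at 30 mg/kg (569 higher and 1183 lower, or 936 and 960 after median centring and 693 and 719 after quantile normalization; centring moved the median of all genes from 0.032 to 0.12). Dusp5 (0.97 ± 0.32, adjusted p = 0.060) and Spry1 (0.71 ± 0.26, adjusted p = 0.075) fell short. The call of Dusp4 was lost without sample 4 at 30 mg/kg (0.88, adjusted p = 0.097), and those of Dusp4 and Spry4 without both samples 3 and 4 (0.68 and 0.76, adjusted p = 0.28 and 0.096). Controls 1 to 4 were higher than controls 5 to 7 by 0.75 for Dusp4, 0.54 for Dusp5 and 0.40 for Spry4, so the control sets of the same numbers differed in the same direction as the doses. The difference between the changes within the sets, with sex and set as terms, was 0.55 ± 0.48 for Dusp4 (95% interval -0.45 to 1.56), 0.31 ± 0.24 for Spry4 (-0.20 to 0.82) and 0.11 ± 0.48 for Dusp5 (-0.90 to 1.12). By limma 0% of 14506 genes and 0 of the 10 feedback genes passed in this test, and 971 genes, 0 of these 10 among them, had an unadjusted p under 0.05.

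Within numbers 1 to 4, 0 of the 10 genes and 0.427% of all genes passed, while 4 of the 10 (Spry4, Spred1, Spred2 and Etv5) had an unadjusted p under 0.05, against 13.1% of all genes (limma, 4 against 4 samples). All 10 estimates were above 0 in that comparison, with a median of 0.88 against -0.0047 for all genes. Within numbers 5 to 10 the median was 0.45 against 0.013, and 7 of 10 were above 0. In the pair of comparisons, which share no sample, 7 of the 10 genes were above 0 in both, namely Dusp5, Dusp6, Spry2, Spry4, Spred1, Spred2 and Etv5, against 30.8% of all genes.

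**Figure D3:**
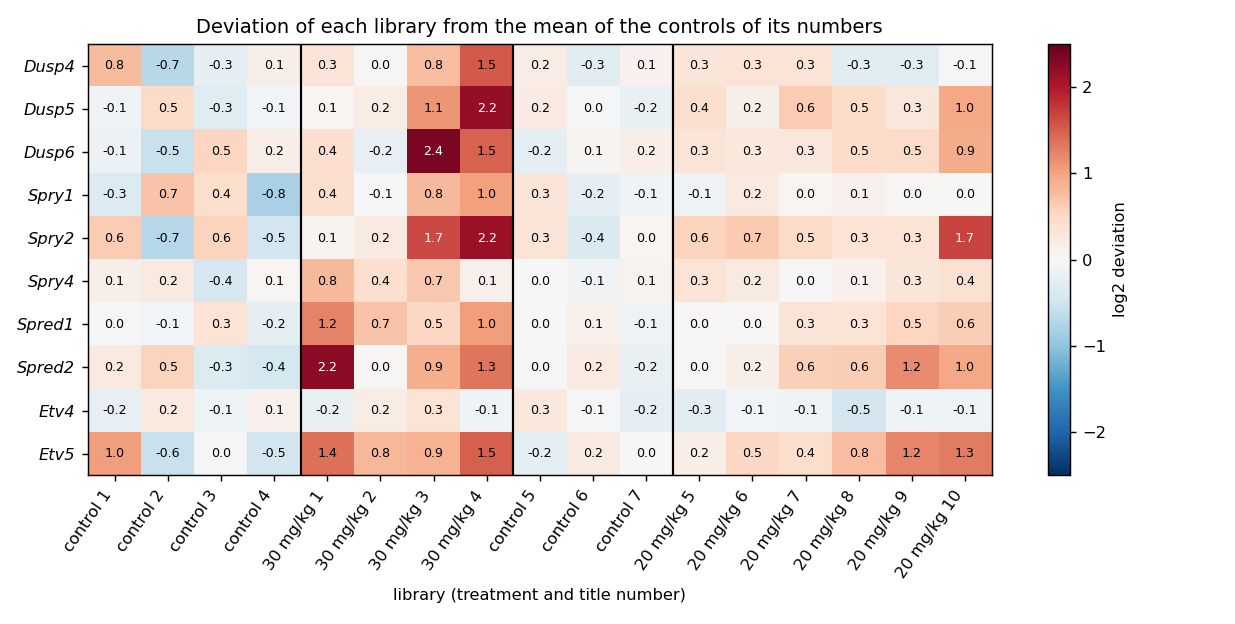
Deviation (log2, colour and printed value) of each feedback gene (rows) in each sample (columns) from the mean of the controls with the same set of title numbers; vertical lines separate controls 1 to 4, 30 mg/kg, controls 5 to 7 and 20 mg/kg. Between 8 and 10 of the 10 genes lie above their control mean in every treated sample, and the deepest colours are Dusp6 in sample 3 (2.35), Spred2 in sample 1 (2.23) and Dusp5 in sample 4 (2.19) at 30 mg/kg. Samples of a set share the same control means, and the share of all genes was not counted.

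Counted sample by sample against the mean of the controls of the same numbers, between 8 and 10 of the 10 genes were above it in every treated sample, with 10 of 10 in sample 3 at 30 mg/kg and 8 of 10 in sample 2. The share of all genes above it was not counted. Samples of a set share the same control means, so these counts are not independent of each other. All 10 genes had their highest value of the 17 samples at 30 mg/kg, as 31.4% of all genes did, and 7 of them in samples 3 or 4, as 18% of genes did. Samples 3 and 4 at 30 mg/kg lay above every control in Dusp5, Dusp6 and Spry2. Sample 10 at 20 mg/kg did so in Dusp6 and Spry2 but not in Dusp5. At 20 mg/kg samples 5, 6 and 7 also lay above every control in Spry2, and sample 9 in Dusp6. Samples 3 and 4 at 30 mg/kg and sample 10 at 20 mg/kg were also high in immediate early genes. These are transcripts induced within minutes by growth factors, stress or handling. The mean of the 13 measured of 14 listed immediate early genes was 7.54 and 8.00 in samples 3 and 4 at 30 mg/kg and 7.29 in sample 10 at 20 mg/kg, while it lay between 6.18 and 7.04 in controls. It was 6.37, 6.51, 6.55 and 6.27 in samples 5, 6, 7 and 9 at 20 mg/kg, within the range of the controls. Control 2, with the mean of 7.04, had the lowest Dusp6 and Spry2 of the 17 samples but the highest Dusp5 of the controls (6.13). In samples 3 and 4 at 30 mg/kg and sample 10 at 20 mg/kg Egr1 read 10.80, 11.49 and 10.83. Dusp1, a stress-induced MAP kinase phosphatase, read 8.86, 10.09 and 8.99 there. The other samples reached at most 10.15 for Egr1, in control 2, and at most 7.80 for Dusp1. The part of this in the changes of Dusp5, Dusp6 and Spry2 was not tested. Without samples 3 and 4, Spred1 was still called over both doses and at 30 mg/kg, Etv5 was 0.85 ± 0.22 over both doses (adjusted p = 0.074) and 1.23 ± 0.33 at 30 mg/kg (adjusted p = 0.088), and Spry4 was 0.76 ± 0.20 at 30 mg/kg (adjusted p = 0.086).

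The rest of the pathway was described with 7 lists. Among other feedback and ERK-output genes, 18 of 22 were measured, and over both doses 0 rose and 2 fell, Ccnd1, the cyclin D1 gene that both ERK and PI3K sustain (-0.77 ± 0.18), and Etv1, the remaining PEA3 factor (-0.73 ± 0.17; limma, adjusted p = 0.042 for each). Both were below the control mean in all 10 treated samples, so Etv1 and Etv5, of one family, moved in opposite directions. At 30 mg/kg 4 rose and 1 fell, Dusp1 (1.85 ± 0.40, adjusted p = 0.0092), Ier3 (0.98 ± 0.27, adjusted p = 0.031), and, named after their values were seen, Dusp10 and Phlda1 rising, and Ccnd1 falling (-0.86 ± 0.23, adjusted p = 0.027). Of 13 immediate early genes 0 were called over both doses and 5 rose at 30 mg/kg, Junb (1.67), Egr1 (2.40), Nr4a1 (1.97), Myc (0.60) and, named after its values were seen, Egr2. At 20 mg/kg no gene of any of the 7 lists passed against all controls. In all 7 lists 18 genes were called at 30 mg/kg against all controls, where 8.55% of all genes were called. Against controls 1 to 4 all 18 kept their sign and 0 passed (limma, adjusted p between 0.091 and 0.43). Of the 18, 16 had an unadjusted p under 0.05, against 13.1% of all genes. The 18 were picked with the same 30 mg/kg samples and with these controls among the 7. Kept signs and low p were therefore largely built in and are no separate support. Against those controls Dusp1 was 1.66 ± 0.50 (adjusted p = 0.20) and Egr1 1.88 ± 0.60 (adjusted p = 0.22).

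Upstream, 1 of 19 measured receptor tyrosine kinases of 20 rose over both doses, the VEGF receptor gene Flt1 (0.74 ± 0.17, adjusted p = 0.033), which was also called within numbers 5 to 10 (0.75 ± 0.15, adjusted p = 0.041) but not within numbers 1 to 4 (0.99 ± 0.20, adjusted p = 0.091). At 30 mg/kg 4 rose, Flt1 (1.09), the PDGF receptor gene Pdgfra (1.31), the IGF1 receptor gene Igf1r (1.07) and Egfr (0.91), with adjusted p between 0.0010 and 0.039. Against controls 1 to 4 the last 3 were 1.33, 1.06 and 0.89 (adjusted p = 0.13, 0.25 and 0.35). Among 21 of 22 growth factor ligands none passed over both doses. At 30 mg/kg Igf1, the ligand of Igf1r, was lower (limma, -2.42, adjusted p = 0.019, and -2.19 against controls 1 to 4, adjusted p = 0.17). Bdnf was higher there (limma, 0.39, adjusted p = 0.024, and 0.37 against controls 1 to 4, adjusted p = 0.33). Bdnf was dim, averaging 3.48 in controls and 3.87 at 30 mg/kg, where the lower quartile of the arrays lay between 3.65 and 3.91. Of 18 of 20 adaptors and RAS regulators 0 passed over both doses and 1, the docking gene Gab2, rose at 30 mg/kg. Of 13 of 19 genes of the kinase cascade and its scaffolds none passed at either dose; the smallest p belonged to Lamtor3, which tethers MEK to the lysosome (0.63, adjusted p = 0.062), and Rps6ka5, an ERK-activated kinase (0.50, adjusted p = 0.15). Of 8 of 10 other ETS and SRF factors 0 passed over both doses and Ets2 rose at 30 mg/kg. The medians over both doses lay between 0.011 and 0.27 for these 7 lists and at 0.58 for the feedback genes.

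**Figure D4:**
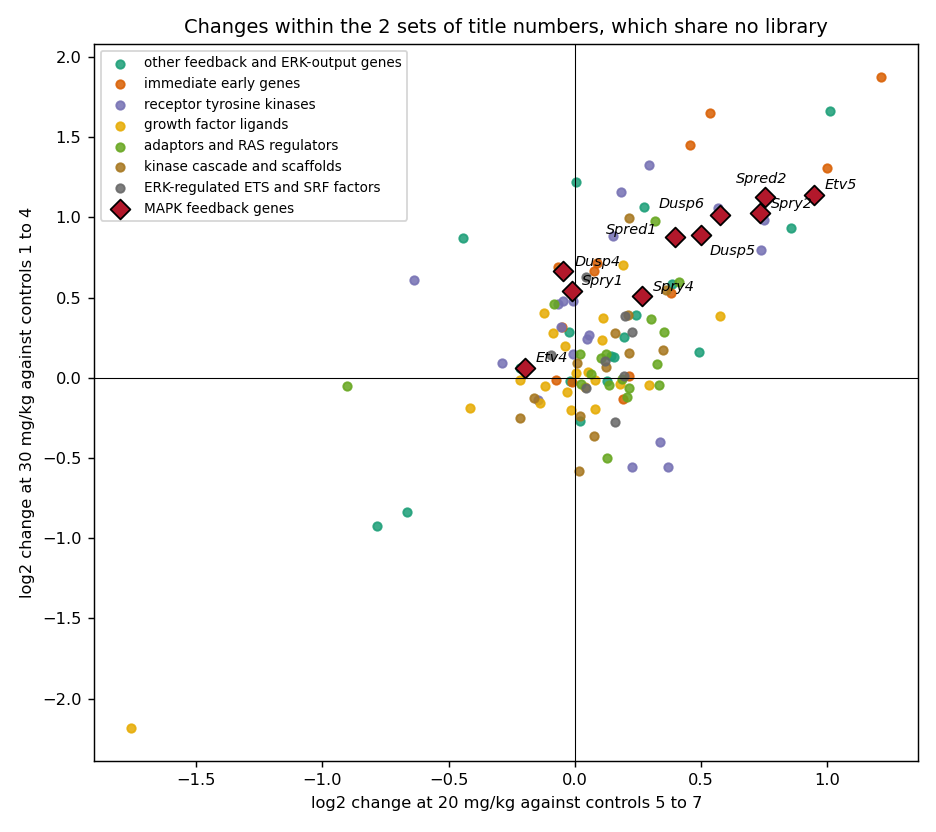
Log2 change at 20 mg/kg against controls 5 to 7 (x axis) and at 30 mg/kg against controls 1 to 4 (y axis) for the feedback genes (diamonds) and 7 lists of other pathway genes (circles, by colour). Of the diamonds, 7 lie in the upper right part of the plot, with Etv5 at 0.95 and 1.14, and Dusp4, Spry1 and Etv4 lie left of the vertical line.

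Markers of other cells in the tumour moved with treatment as well; in bulk tissue, fewer cells of a type and less RNA per cell cannot be told apart. The mean of 11 of 12 endothelial markers lay between 6.78 and 7.36 in controls, 7.43 and 7.76 at 30 mg/kg and 7.01 and 7.34 at 20 mg/kg; 4 of them rose at 30 mg/kg against all controls (Flt1, Eng, Emcn and Cdh5, named after their values were seen; 0 within numbers 1 to 4) and 1, Flt1, over both doses. The macrophage mean (10 of 10 markers) lay between 6.96 and 7.41 in controls, 6.10 and 6.97 at 30 mg/kg and 6.72 and 7.36 at 20 mg/kg, with 4 markers lower at 30 mg/kg (2 within numbers 1 to 4) and 1 over both doses. The lymphocyte mean (7 of 9) lay between 4.68 and 5.13 in controls and between 4.16 and 4.56 in treated samples. Of these markers 2 were lower over both doses, 3 at 30 mg/kg (0 within numbers 1 to 4) and 1 at 20 mg/kg (2 within numbers 5 to 10). The fibroblast and pericyte mean (10 of 10) lay between 7.48 and 7.77 in controls and between 7.06 and 7.62 in treated samples. Over both doses 1 of these markers was lower. At 30 mg/kg 3 were lower and 1, Pdgfra, higher (0 called within numbers 1 to 4), and 2 were lower at 20 mg/kg (1 within numbers 5 to 10). Sustentacular and Schwann markers (6 of 8) had 0 calls, and so did chromaffin (6 of 8), adrenal cortex (9 of 11) and pituitary hormone markers (7 of 7) over both doses. At single doses against all controls 1 gene of these 4 lists was called, Mc2r, the ACTH receptor gene, named after its values were seen. It was lower at 20 mg/kg (-1.47 ± 0.26, adjusted p = 0.017; -1.35 ± 0.32 against controls 5 to 7, adjusted p = 0.071). No list lay at or below the lower quartile of the arrays as a whole. The part of these cells in the changes of the feedback genes was not tested.

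No pair of feedback genes passed a test of correlation across samples. Over the 45 pairs, with group means removed and 17 samples, 0 reached an adjusted p of 0.05 by Pearson's r (3 at an unadjusted p under 0.05), by Spearman's rho, or with the means of the 4 combinations of treatment and set removed (permutation within groups, 100000 resamples). The closest pair was Spred1 with Spred2 (r = 0.71, permutation p = 0.0037, adjusted p = 0.17, and rho = 0.76, permutation p = 0.0021, adjusted p = 0.094). Its r was 0.67 without the 2 samples farthest from the median of Spred1. With the means of the 4 combinations removed it was 0.64 (permutation, adjusted p = 0.42). Dusp6 with Spry2 followed (r = 0.70, permutation p = 0.039, adjusted p = 0.38, and rho = 0.63, permutation p = 0.063, adjusted p = 0.41). Its r was 0.72 without the 2 samples farthest from the median of Dusp6, and 0.70 with the means of the 4 combinations removed (permutation, adjusted p = 0.49). Among all genes, those most like Spred1 over the 17 samples by r with group means removed were Pgm2l1 (0.90), S100pbp (0.90) and Fmr1 (0.89), and those most like Etv5 were Lsm11 (0.87), Actn4 (0.82) and Tomm22 (0.81). Differences between controls 1 to 4 and 5 to 7, which did not overlap for Spred1, remain in these r.

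None of the 10 genes differed between male and female rats after adjustment (limma, treatment as a term; 0.241% of genes were called). Spred1 was 0.35 ± 0.13 (adjusted p = 0.22) and Spred2 0.57 ± 0.26 (adjusted p = 0.30) higher in male rats, and these were the 2 with an unadjusted p under 0.05. Both sexes were present among all controls and at each dose, with 1 male at 30 mg/kg, sample 4, and males 9 and 10 at 20 mg/kg. Controls 1 to 4 were all female. The comparison of 30 mg/kg with them had no sex term and set male sample 4 against female controls only. In female rats alone the changes over both doses were 0.64 ± 0.16 for Spred1 (adjusted p = 0.17) and 0.77 ± 0.26 for Etv5 (adjusted p = 0.31). None of the 4 genes called at 30 mg/kg passed there (adjusted p between 0.062 and 0.35).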

How the data were processed

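Per the labels' protocols, column-purified, DNase-treated RNA was amplified over whole transcripts before biotin labelling. The deposited values are log2 intensities made with RMA in Affymetrix Expression Console 1.3.0.187, per the submitters' processing notes; RMA corrects background, normalizes the arrays and summarises probes, which compresses differences of dim probe sets. The table held 29214 probe sets on 17 arrays. The probe annotation gave 1 gene symbol for 15310 of them, several for 323, and did not list 13581, which were left out; 15279 of the 15310 matched the RefSeq gene table. The probe set with the highest mean stood for each of 14506 genes. No pair of arrays was identical (r from 0.932 to 0.993), and the number of arrays limits the precision.

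Changes were tested with limma 3.58.1 under R 4.3.3, using lmFit and eBayes with two-sided p-values, fitted on all genes and adjusted by Benjamini-Hochberg over them, threshold 0.05, after a run on simulated data. Both doses against control used treatment and sex; each dose used 3 groups and sex; numbers 1 to 4 had no sex term, numbers 5 to 10 had one. Errors are SE for changes and SD for levels. Plots and correlations used Python 3.11.15. Members and lists were chosen with earlier results of these data known. Named pathway genes were, per list, up to 4 that passed in a comparison with control, by smallest p over both doses, or the 2 smallest p where none passed; 3 most similar genes were named for each feedback gene called over both doses. Alternatives covered sex, set, replicate block, normalization, filters, weights, variances, probe sets and left-out samples.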

Additional observations from a re-analysis of the deposited data

Results flagged for a closer look

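Sample 10 at 20 mg/kg lay far above the other 5 samples of its group in Spry2 (8.98) and in Dusp6 (8.10), with 0.76 and 0.68 of the group's range between it and the next sample, where 0.625 is the limit used. These were 2 of 30 groups of gene values examined, and chance flags about 1 in 20. The change at 30 mg/kg exceeded that at 20 mg/kg by 1.34 for Dusp4 and by 0.67 for Spry4 (limma, adjusted p = 0.015 for each); the set of title numbers coincides with the dose and cannot be told apart from it in this contrast.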

How the results depend on the processing

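Here a pair of counts gives the genes called of 14506 and the feedback genes called of 10 by limma. As reported, these were 215 and 2 over both doses, 1240 and 4 at 30 mg/kg, 171 and 1 at 20 mg/kg, 1752 and 2 between doses, 62 and 0 within numbers 1 to 4 and 173 and 2 within numbers 5 to 10. Without a sex term they were 100 and 1 over both doses, 55 and 0 at 20 mg/kg and 55 and 0 within numbers 5 to 10. In female rats only they were 12 and 0 over both doses, 251 and 0 at 30 mg/kg, 2 and 0 at 20 mg/kg and 405 and 1 between doses. With the set of title numbers as a term they were 712 and 3 over both doses, 437 and 1 at 30 mg/kg and 52 and 0 at 20 mg/kg. With array weights they were 424 and 3 over both doses, 577 and 3 at 20 mg/kg and 2366 and 4 between doses. After quantile normalization they were 113 and 0 at 20 mg/kg. After median centring they were 1896 and 4 between doses. With all probe sets they were 273 and 0 at 20 mg/kg. With trended and robust variances they were 200 and 0 at 20 mg/kg. With the replicate number as a block they were 231 and 1 over both doses, 72 and 0 at 30 mg/kg, 0 and 0 at 20 mg/kg, 0 and 0 between doses, 19 and 0 within numbers 1 to 4 and 2 and 0 within numbers 5 to 10. With a sex term they were 16 and 0 within numbers 1 to 4. With genes above the median only they were 138 and 2 over both doses and 99 and 1 within numbers 5 to 10. Without samples 3 and 4 at 30 mg/kg, chosen after seeing the data, they were 150 and 1 over both doses, 155 and 1 at 30 mg/kg and 51 and 0 between doses. Deviations of same-numbered samples from their group means correlated at r between -0.18 and 0.085, with the own number best in 1 of 7. The control deviations still held the difference between controls 1 to 4 and 5 to 7, so a low r cannot exclude pairing by number. The replicate block is given only here. Leaving out 1 sample at a time gave 46 to 249 genes over both doses (lowest without control 7, highest without 30 mg/kg sample 2), 0 to 3 feedback genes over both doses, 456 to 1563 genes at 30 mg/kg (lowest without 30 mg/kg sample 4, highest without 30 mg/kg sample 1), 3 to 7 feedback genes at 30 mg/kg, 22 to 470 genes at 20 mg/kg (lowest without 20 mg/kg sample 7, highest without control 5), 0 to 2 feedback genes at 20 mg/kg, 321 to 2172 genes between doses (lowest without 30 mg/kg sample 4, highest without 30 mg/kg sample 1), 1 to 4 feedback genes between doses, 4 to 122 genes within numbers 1 to 4 (lowest without control 3, highest without 30 mg/kg sample 1), 0 to 1 feedback genes within numbers 1 to 4, 22 to 250 genes within numbers 5 to 10 (lowest without control 7, highest without 20 mg/kg sample 5), 0 to 2 feedback genes within numbers 5 to 10 and 0 to 8 genes for the difference between sets. No call reversed in sign except that of Dusp4 between doses under the block. Without a sex term the sign turned for Spry4 (at 20 mg/kg, -0.0035), Dusp4 (within numbers 5 to 10, 0.064) and Spry1 (within numbers 5 to 10, 0.049). In female rats only the sign turned for Dusp4 (over both doses, -0.049), Dusp5 (at 20 mg/kg, -0.060), Spry4 (at 20 mg/kg, -0.16), Spry2 (between doses, -0.12) and Spred2 (between doses, 0.037). With the set of title numbers as a term the sign turned for Dusp4 (at 20 mg/kg, 0.090) and Spry1 (at 20 mg/kg, 0.063). With array weights the sign turned for Dusp4 (over both doses, -0.091). After quantile normalization the sign turned for Spry4 (at 20 mg/kg, -0.052) and Spred2 (between doses, 0.055). After median centring the sign turned for Spry4 (at 20 mg/kg, -0.017) and Spry1 (within numbers 5 to 10, 0.028). With the replicate number as a block the sign turned for Dusp4 (at 20 mg/kg, 0.58), Spry1 (at 20 mg/kg, 0.42), Dusp4 (between doses, -0.014), Dusp5 (between doses, -0.27), Spry1 (between doses, -0.015), Spry2 (between doses, -0.37), Spred2 (between doses, 0.57) and Dusp4 (within numbers 5 to 10, 0.14). Without samples 3 and 4 at 30 mg/kg the sign turned for Dusp4 (over both doses, -0.17), Spry1 (over both doses, -0.0029), Dusp6 (between doses, -0.31), Spry2 (between doses, -0.71) and Spred2 (between doses, 0.084). With 1 sample left out, the range crossed 0 for Dusp4 (over both doses, -0.059 to 0.36), Etv4 (at 30 mg/kg, -0.015 to 0.16), Spry1 (at 20 mg/kg, -0.20 to 0.054), Spry4 (at 20 mg/kg, -0.057 to 0.066), Spry2 (between doses, -0.21 to 0.41), Spred1 (between doses, -0.063 to 0.18), Spred2 (between doses, -0.50 to 0.23), Etv4 (within numbers 1 to 4, -0.030 to 0.14), Dusp4 (within numbers 5 to 10, -0.12 to 0.050), Spry1 (within numbers 5 to 10, -0.091 to 0.18), Etv4 (within numbers 5 to 10, -0.29 to 0.041), Dusp5 (for the difference between sets, -0.39 to 0.40), Dusp6 (for the difference between sets, -0.30 to 0.77), Spry2 (for the difference between sets, -0.60 to 0.38), Spred2 (for the difference between sets, -0.23 to 0.69) and Etv5 (for the difference between sets, -0.13 to 0.41). The cause was not tested. The mean of probe sets changed no call of a feedback gene, but each had 1 probe set, so this setting could not change their estimates. Dim probe sets, Etv4 above all, allow no statement about small changes, and 4 samples at 30 mg/kg limit that arm.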

Other observations

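The 2 control sets given by the title numbers had different levels of several feedback genes. Controls 5 to 7 lay entirely above controls 1 to 4 for Spred1 (7.91 against 7.40), as they did for 10.9% of genes, and were higher for Spred2 (6.53 against 5.86, with overlap), whereas they lay entirely below them for Dusp5 (5.11 against 5.65), as for 10.5% of genes, and were lower for Dusp4 (5.27 against 6.02, with overlap). Both male controls are among controls 5 to 7. These differences were not tested.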
